A study of Mus musculus with 6 samples.

Results

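The histone genes of the hypertrophic zone were followed through 6 libraries, 3 from Adamts17-/- and 3 from wild-type (WT) mice. Members were all rows of the deposited expression table whose symbol begins with Hist1h to Hist4h, H2af, H3f or H1f. This gave 35 of 14882 rows. Of these, 24 were clustered genes with a Hist symbol, standing for 19 symbols, and 11 were replacement genes with an H2af, H3f or H1f symbol. Rows were thus chosen by gene name, but the family itself was selected on RPKM measured in these same libraries, with the high values of Adamts17-/- replicate 2 known. The values below are therefore a description, and the difference between genotypes is given with its standard error but supports nothing beyond these libraries.

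The 3 Adamts17-/- libraries came from 7-day-old C57BL/6 mice lacking functional copies of Adamts17, whose product is an extracellular metalloprotease. The 3 WT libraries came from littermates of the same strain and age. All 6 were made from hypertrophic cartilage of the growth plate at the upper end of the tibia, cut out of frozen sections with a laser, and the messenger RNA was amplified linearly before sequencing. The sources used here do not say how the allele was made, which part of the gene is missing or whether animals were pooled.

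Nucleosomes are built from the core histones H2A, H2B, H3 and H4, and the linker histone H1 binds the DNA between them. Clustered histone genes lie together, mostly at a single large locus, and are transcribed chiefly while DNA is being copied. Their messages end in a short hairpin that is bound by the stem-loop binding protein Slbp, and most carry no poly(A) tail. Replacement histone genes are scattered, usually contain introns, give polyadenylated messages and are expressed in dividing and non-dividing cells alike, so they are the main new histones of cells that have left the cell cycle, as hypertrophic chondrocytes do.

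Levels are given as RPKM, reads scaled by transcript length and by a factor for each library that the authors set. Read equivalents are the RPKM converted back to reads, which need not be whole. Summed over all rows they came to 882809, 2688295 and 595989 in Adamts17-/- replicates 1, 2 and 3, and 1662637, 722119 and 899162 in WT replicates 1, 2 and 3. Adamts17 itself was at 0.0085, 0.087 and 0.026 RPKM in Adamts17-/- and at 0.246, 0.0407 and 0.397 RPKM in WT, which is at most 1.1 read equivalents in Adamts17-/- and at most 4.25 in WT. At this depth it could not check the labels. Scaling to these totals in place of the authors' factors lowers Adamts17-/- replicate 2 and raises WT replicate 1, and its values are given below where they change a comparison. Col10a1, the collagen that defines hypertrophic cartilage, was at 1437, 1507 and 4151 RPKM in Adamts17-/- and at 2218, 13347 and 5866 RPKM in WT, so the labelled tissue was present in all 6 libraries.

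The hairpin that sets clustered messages apart was looked for in the GENCODE M21 transcripts (GRCm38) of every member, on the sense strand, as complementary arms of 6 bases, the first opening with GG and closing with T, around a loop of 4 bases that begins with TT. It was found in 11 of the 19 clustered symbols and in 1 of the 11 replacement symbols, and in 24 of 21795 other protein-coding genes (0.11%). Of the 14 clustered symbols with at least 16 annotated bases after the stop codon, 11 held it and 3 did not. Those 3 were the H2B genes Hist1h2bc, Hist1h2bq and Hist1h2br, whose annotated transcripts have 2 exons. For the other 5, Hist1h2af, Hist1h2ah, Hist1h2ai, Hist1h2ak and Hist1h2an, the annotated transcript ends at or just after the coding sequence, so the hairpin could not be looked for. The sequences below show the form shared by most members, that of the single H4 gene, and that of H2afx, with the paired arms in capitals and the loop in lower case.
Hist1h2ab, H2A (chr13:23751572-23751587, plus strand): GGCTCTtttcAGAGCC
Hist1h1e, H1 (chr13:23621782-23621797, minus strand): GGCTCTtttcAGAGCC
Hist1h4i, H4 (chr13:22040966-22040981, minus strand): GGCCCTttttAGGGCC
H2afx, replacement H2A.X (chr9:44335240-44335255, plus strand): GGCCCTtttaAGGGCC
The 8 clustered H2A genes and 2 H1 genes in which it was found carried 1 and the same hairpin, while Hist1h4i and H2afx differed from it in the arms and in the loop. H2afx is the replacement gene known to give a hairpin-ended as well as a polyadenylated message. Its annotated transcript runs on for 822 bases after the hairpin. Those of Hist1h2ab and Hist1h2ap run on for 11 and 3 bases, and those of Hist1h1e and Hist1h2ac for 1153 and 2010 bases.

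The clustered H2A genes are near copies of each other, which bears on every value given for them. Among the H2A genes of chromosome 13, the 55 pairs with coding sequences of 393 bases were 96.2% to 100% identical, and Hist2h2aa1 on chromosome 3 was 90.3% to 91.9% identical to them. A stretch of 60 coding bases, coding positions 169 to 228 counted from the A of the start codon, was the same letter for letter in 12 of 13 H2A symbols. It is shown with the 1 gene that differs, the different base in capitals.
Hist1h2ab (chr13:23751301-23751360, plus strand): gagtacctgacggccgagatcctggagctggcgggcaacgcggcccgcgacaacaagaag
Hist2h2aa1 (chr3:96245749-96245808, plus strand): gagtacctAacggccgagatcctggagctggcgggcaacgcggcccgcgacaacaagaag
The first 60 coding bases hold more differences, and are shown for 5 genes whose values are compared below. Capitals mark bases that differ from Hist1h2ab.
Hist1h2ab (chr13:23751133-23751192, plus strand): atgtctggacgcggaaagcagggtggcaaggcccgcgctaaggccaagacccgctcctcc
Hist1h2ae (chr13:23571049-23571108, minus strand): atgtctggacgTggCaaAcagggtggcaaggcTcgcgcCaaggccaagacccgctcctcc
Hist1h2ag (chr13:22042868-22042927, minus strand): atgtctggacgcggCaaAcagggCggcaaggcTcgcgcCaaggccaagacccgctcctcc
Hist1h2ap (chr13:21833416-21833475, minus strand): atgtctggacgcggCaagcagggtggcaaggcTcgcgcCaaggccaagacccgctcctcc
Hist1h2af (chr13:23533911-23533970, plus strand): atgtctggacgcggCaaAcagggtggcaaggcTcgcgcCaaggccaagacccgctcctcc

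Windows of 50 bases were compared over whole GENCODE M21 transcripts. More than 50% of them were shared with another gene in 13 of 19 clustered symbols and 0 of 11 replacement symbols. The transcript counted for a row can differ in length. It has 782 bases against 1930 in GENCODE for Hist1h1e, and 487 against 2482 for Hist1h2ac. For such genes the share does not describe the counted transcript. For Hist1h2bq and Hist1h2br the share was 100% and 99.8%, for Hist1h2ap 93.1%, for Hist1h2af 79.7% and for Hist1h2ab 58.0%. Among replacement genes the highest shares were 43.9% for H3f3a and 33.2% for H2afz, whose windows recur mainly in predicted genes such as Gm6421 and Gm8203. It was 0% for H1f0, H2afy, H2afv and H1foo.

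**Figure D1:**
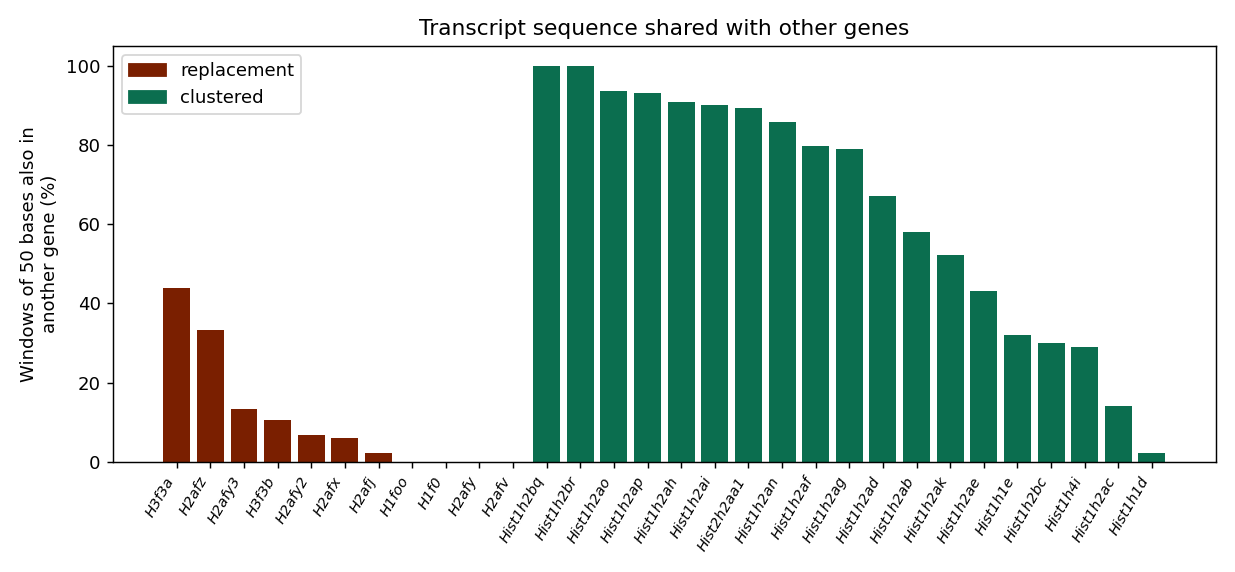
Share of 50-base windows of each member's GENCODE M21 transcript (y axis, percent) that also occur in the transcript of another gene. Replacement genes are in brown and clustered genes in green. The clustered genes reach 100%, and the highest replacement gene, H3f3a, stands at 43.9%.

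Promoters of 27 of the 30 symbols were matched in the RefSeq table (GRCm38.p6), and the 250 bases before the start were searched on both strands for CCAAT and TATAAA, which can share 1 base where they meet. CCAAT was present in 17 of 18 clustered genes (94.4%), 6 of 9 replacement genes (66.7%) and 37.4% of 26998 other genes. TATAAA was present in 7 of 18 clustered genes (38.9%), 1 of 9 replacement genes (11.1%) and 14.3% of other genes. The 120 bases before the start are given for 2 core H2A genes, for a linker gene and for the 2 replacement genes with the highest levels, with both motifs in capitals on either strand (ATTGG is CCAAT on the other strand).
Hist1h2ab (chr13:23750968-23751087, plus strand): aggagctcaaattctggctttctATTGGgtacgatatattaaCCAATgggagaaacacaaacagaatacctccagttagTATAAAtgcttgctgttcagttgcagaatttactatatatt
Hist1h2af (chr13:23533755-23533874, plus strand): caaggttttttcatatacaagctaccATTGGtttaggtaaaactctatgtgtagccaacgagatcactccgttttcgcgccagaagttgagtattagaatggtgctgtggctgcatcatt
Hist1h1e (chr13:23622559-23622678, minus strand): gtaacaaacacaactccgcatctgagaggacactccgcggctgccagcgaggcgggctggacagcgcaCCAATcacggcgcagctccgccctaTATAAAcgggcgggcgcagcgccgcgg
H3f3a (chr1:180813606-180813725, minus strand): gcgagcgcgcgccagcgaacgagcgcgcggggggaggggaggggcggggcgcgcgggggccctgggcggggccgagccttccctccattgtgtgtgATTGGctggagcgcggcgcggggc
H2afz (chr3:137864367-137864486, plus strand): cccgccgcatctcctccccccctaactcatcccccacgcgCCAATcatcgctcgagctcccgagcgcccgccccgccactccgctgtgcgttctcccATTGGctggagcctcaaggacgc
These matches describe the letters of the windows, and no binding was measured.

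The deposited table lists 19 Hist symbols, against 70 in GENCODE M21, and no clustered H3 gene. Most clustered messages also carry no poly(A) tail. The sums therefore do not give the make-up of all histone messages in the tissue. Among the listed rows, replacement genes gave most of the histone signal in all 6 libraries. Their summed level was 1640, 6678 and 1604 RPKM in Adamts17-/- replicates 1, 2 and 3, and 1112, 820 and 1422 RPKM in WT replicates 1, 2 and 3. On this scaling the 3 Adamts17-/- libraries lay above the 3 WT libraries, replicate 2 by far the most. As a share of all read equivalents the groups overlapped, at 0.241%, 0.657% and 0.244% in Adamts17-/- and 0.250%, 0.116% and 0.183% in WT. The clustered genes, summed over 22 distinct positions, were at 770, 576 and 364 RPKM in Adamts17-/- and 327, 286 and 426 RPKM in WT, and these groups overlapped. Positions were taken as distinct if start, strand or transcript length differed, so overlapping rows of Hist1h2ao and Hist1h2ap were both summed. H2A rows with matching values, described below, were summed as well, so the clustered sum does not add up separate measurements. Replicate 2 was 4.07 times the next highest library in the replacement sum, or 2.73 times with values scaled to total read equivalents, and 0.748 or 0.502 times the highest in the clustered sum. The replacement sum was 11.6 times the clustered sum in Adamts17-/- replicate 2, and 2.13 and 4.41 times in the other Adamts17-/- libraries, against 3.40, 2.87 and 3.34 times in WT.

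The mean replacement sum was 3307 ± 2919 RPKM in Adamts17-/- and 1118 ± 301 RPKM in WT (SD, n = 3 each), a ratio of 2.96, and without Adamts17-/- replicate 2 the ratio was 1.45. With values scaled to total read equivalents it was 2.125 with all libraries. For the clustered sum the means were 570 ± 203 RPKM in Adamts17-/- and 346 ± 71.97 RPKM in WT, with a ratio of 1.65, and 1.64 without that library. Scaled to total read equivalents, the clustered ratio was 1.358 with all libraries. In bulk tissue such as this, fewer cells of a type and less RNA per cell cannot be told apart.

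**Figure D2:**
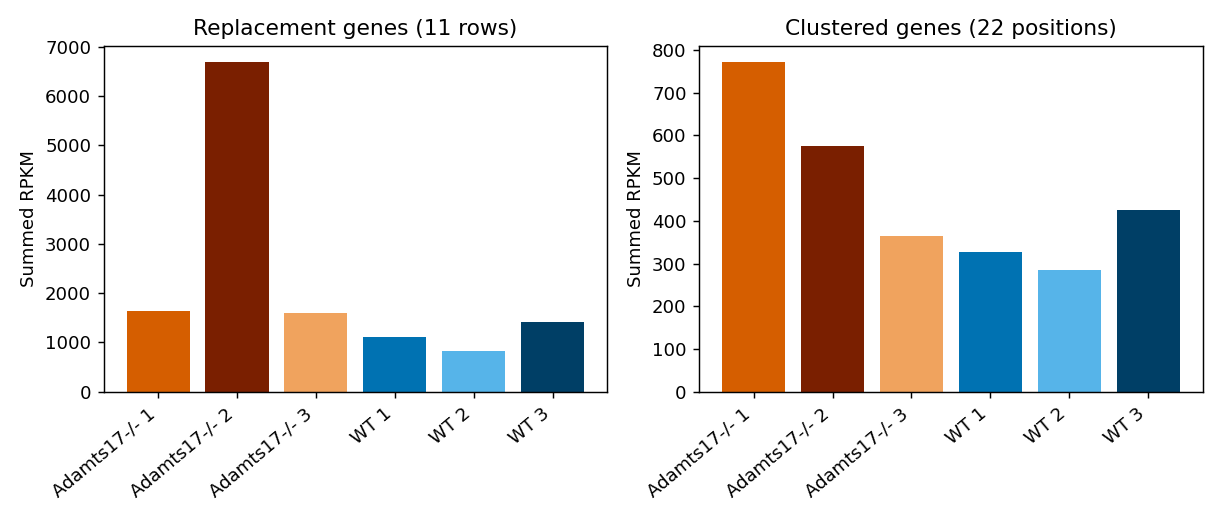
Summed RPKM (y axes, linear from 0) of the 11 replacement genes, left, and of the clustered genes at 22 distinct positions, right, in each of the 6 libraries. Adamts17-/- replicate 2 reaches 6678 RPKM among replacement genes and 576 RPKM among clustered genes, where replicate 1 is the highest at 770 RPKM.

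Variant H3 was the most abundant message among the listed histone rows. H3f3a and H3f3b encode the same replacement histone, H3.3, which is laid down outside DNA replication. H3f3a (chromosome 1, 180802568 to 180813603) was at 761, 3085 and 567 RPKM in Adamts17-/- and at 521, 554 and 901 RPKM in WT. Adamts17-/- replicate 2 was at 3.43 times the next highest library, and the remaining libraries of both genotypes were interleaved. The log2 difference, Adamts17-/- minus WT on the log2(RPKM + 1) scale, was 0.78 ± 0.97 (SE), and 0.041 without replicate 2. H3f3b (chromosome 11, 116021961 to 116024504) was at 198, 879 and 352 RPKM in Adamts17-/- and at 193, 145 and 300 RPKM in WT. Its groups also overlapped, and its log2 difference was 0.95 ± 1.05, and 0.38 without replicate 2.

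Of the H2A variants, H2afz was the only member among replacement genes whose groups did not overlap on the deposited scaling. It encodes H2A.Z, a variant placed near transcription starts. H2afz (chromosome 3, 137864487 to 137866922) was at 518, 2212 and 444 RPKM in Adamts17-/- and at 302, 67.9 and 103 RPKM in WT. All 3 Adamts17-/- libraries were above all 3 WT libraries, with replicate 2 at 7.33 times the highest WT library. Scaled to total read equivalents, H2afz was at 550, 1575 and 434 in Adamts17-/- and at 473, 67.4 and 89.3 in WT, so that WT replicate 1 fell between Adamts17-/- replicates 3 and 1. The log2 difference was 2.63 ± 1.07 (limma adjusted p = 0.999), and 1.89 without replicate 2. Over all 14882 rows, 2.35% had all Adamts17-/- libraries above all WT libraries and 4.63% had them all below. Among the 35 histone rows 2 were in the first class, H2afz and Hist1h1e, and 0 in the second. With values scaled to total read equivalents 0 histone rows were in either class, against 1.3% and 5.38% of all rows.

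H2afv encodes the second form of H2A.Z. Its levels were 47.0, 116 and 0.221 RPKM in Adamts17-/- and 17.3, 3.89 and 0 RPKM in WT, where replicate 3 of each genotype was at or near 0. The log2 difference was 2.09 ± 1.73, and 0.77 without replicate 2 of Adamts17-/-, 1.006 without WT replicate 3 and 4.07 without Adamts17-/- replicate 3. H2afx, the variant phosphorylated at DNA breaks, was at 1.57, 50.8 and 0.171 RPKM in Adamts17-/- and at 0.484, 0.0669 and 0.0614 RPKM in WT. Its level in replicate 2 was 32.4 times the next highest, resting on 145 read equivalents there and at most 2.19 in any other library. Because it reached 1 RPKM in only 2 libraries it was under the filter and not tested.

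The macroH2A genes encode H2A variants with a large extra domain, known from silent chromatin. H2afy, which encodes macroH2A1, was at 45.2, 90.4 and 229 RPKM in Adamts17-/- and at 28.6, 4.06 and 95.7 RPKM in WT. Here replicate 3 of each genotype was the highest, and WT replicate 3 overlapped the Adamts17-/- range. Its log2 difference was 2.02 ± 1.33, and 2.08 without replicate 2 of Adamts17-/-, but 0.89 without WT replicate 2 and 3.02 without WT replicate 3. H2afy2, which encodes macroH2A2, was at 0.0255, 9.77 and 0.862 RPKM in Adamts17-/- and at 2.93, 0 and 3.73 RPKM in WT. Its log2 difference of 0.048 ± 1.15 moved to -0.94 without replicate 2. H2afy3, annotated as a pseudogene with 13.4% of its windows in H2afy2, was at 16.8, 0.0831 and 0 RPKM in Adamts17-/- and at 1.30, 0 and 0 RPKM in WT, and was under the filter. It lies wholly within Pvt1, a long non-coding gene on the opposite strand, so its reads cannot be told from those of Pvt1 if counting ignored strand.

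H2afj was at 38.6, 48.1 and 2.57 RPKM in Adamts17-/- and at 27.8, 29.8 and 8.61 RPKM in WT, with replicate 3 the lowest in both genotypes. It encodes H2A.J, an H2A variant reported in human cells to accumulate in senescence. Its log2 difference was -0.10 ± 1.45, and -0.78 without replicate 2.

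Of the linker variants, H1f0 encodes H1.0, the linker histone of cells that have stopped dividing. H1f0 was at 13.2, 187 and 7.53 RPKM in Adamts17-/- and at 16.7, 16.1 and 10.3 RPKM in WT. Replicate 2 was at 11.2 times the next highest library, and the 5 others lay between 7.53 and 16.7 RPKM. Its log2 difference was 0.91 ± 1.45 with all libraries and -0.45 without replicate 2. H1foo, the oocyte linker histone, was listed at 0 in all libraries except WT replicate 1, where it was at 0.958 RPKM, or 3.05 read equivalents.

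**Figure D3:**
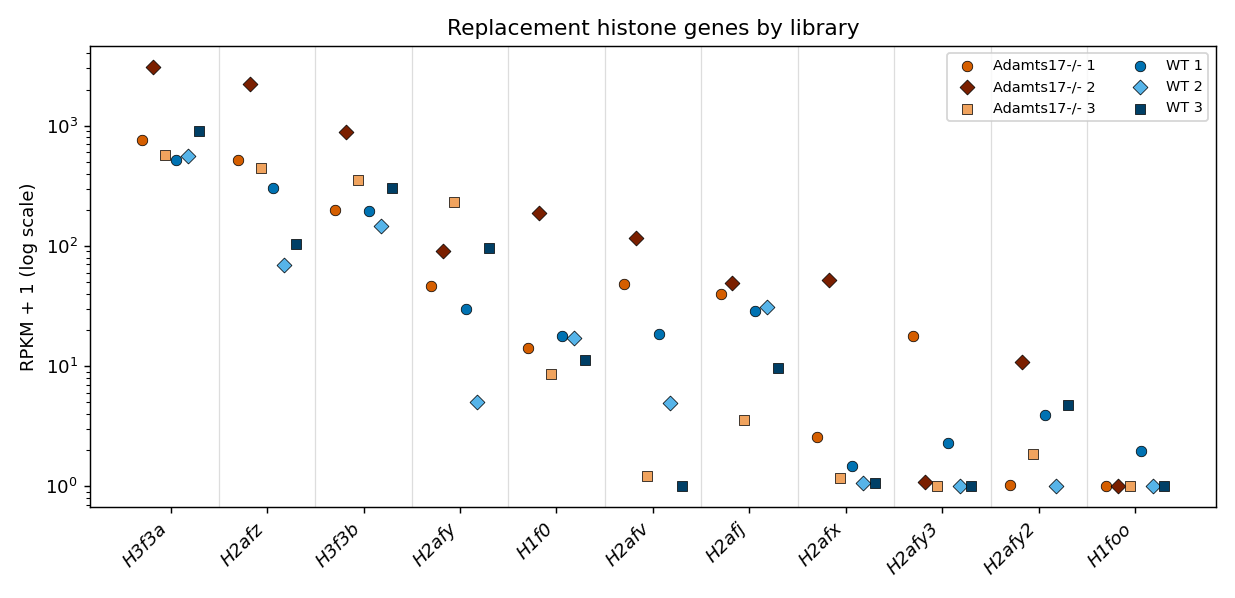
RPKM + 1 of each replacement gene (y axis, log scale) in the 6 libraries, with Adamts17-/- in brown and orange left of WT in blue and 1 symbol per replicate number. The dark diamonds of Adamts17-/- replicate 2 are the highest point for 8 of the 11 genes.

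Adamts17-/- replicate 2 was the highest of the 6 libraries for 8 of 11 replacement rows and for 4 of 24 clustered rows, against 23.1% of all rows of the table. With values scaled to total read equivalents it was the highest for 7 of 11 and 3 of 24, against 16.4% of all rows. Blood cell messages were also highest in that library. The 11 erythroid genes summed to 20085, 264350 and 3712 RPKM in Adamts17-/- and to 3231, 69748 and 5487 RPKM in WT, and all 11 were highest in replicate 2. Hbb-bt and Hbb-b2 had equal values in all 6 libraries, 35443 RPKM each in Adamts17-/- replicate 2. They are therefore not separate measurements in these sums or in the count of 11. The 11 neutrophil and myeloid genes summed to 2530, 67192 and 85.9 RPKM in Adamts17-/- and to 2258, 215 and 33.9 RPKM in WT, and 10 of 11 were highest in replicate 2. In the other libraries at most 1 erythroid gene and between 1 and 7 myeloid genes were listed at 0, and none was at 0 in replicate 2. S100a8, a defining neutrophil gene, was at 20184 RPKM there and at most 597 RPKM elsewhere. The part of these cells in the histone values was not tested. The 12 hypertrophic chondrocyte genes summed to 3509, 5634 and 6494 RPKM in Adamts17-/- and to 4676, 16410 and 12759 RPKM in WT, with none at 0 in any library. Col10a1 made up much of these sums, with 13347 RPKM of the 16410 in WT replicate 2. Means on the log2 scale were higher in Adamts17-/- for 5 of the 12 genes and lower for 7. Muscle genes went another way: the 12 skeletal muscle genes summed to 464, 561 and 362 RPKM in Adamts17-/- and to 16894, 1533 and 258 RPKM in WT.

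Among clustered rows, the linker histone H1.4 was the only one whose groups did not overlap on the deposited scaling. Hist1h1e (chromosome 13, 23621777 to 23622558) was at 106, 69.5 and 115 RPKM in Adamts17-/- and at 42.7, 9.77 and 32.9 RPKM in WT. The 3 Adamts17-/- libraries lay above the 3 WT libraries, and replicate 2 was the lowest of the 3. Scaled to total read equivalents, Hist1h1e was at 112, 49.5 and 113 in Adamts17-/- and at 67.0, 9.70 and 28.6 in WT, and replicate 2 then lay below WT replicate 1. The log2 difference was 1.93 ± 1.26 (limma adjusted p = 0.999), and 2.15 without replicate 2. The Adamts17-/- values rest on 85, 114 and 57.5 read equivalents and the WT values on 95.5, 6 and 22. Of the 50-base windows of the GENCODE transcript of Hist1h1e, 32.0% occur in other genes. That transcript has 1930 bases and the counted one 782. Hist1h1d, which encodes H1.3, was at 2.51, 0.614 and 3.17 RPKM in Adamts17-/- and at 2.03, 0 and 0 RPKM in WT, which is at most 4.5 read equivalents in any library.

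Hist1h2af was the clustered row with the highest mean level, and its libraries came in another order than those of the H2A genes described next. It was at 94.5, 32.1 and 115 RPKM in Adamts17-/- and at 38.2, 171 and 50.3 RPKM in WT. The groups overlapped, WT replicate 2 was the highest and Adamts17-/- replicate 2 the lowest. Its log2 difference was 0.029 ± 1.22, and 0.58 without replicate 2.

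The rows of 5 other H2A genes carried values that cannot be taken as separate measurements. In read equivalents, Hist1h2ab, Hist1h2ad, Hist1h2ae, Hist1h2ah and Hist1h2ai matched within 10% or 0.5 in all 6 libraries. They ran from 17.6 to 18.0, from 23.3 to 24.6 and at 2.46 in Adamts17-/- replicates 1, 2 and 3, and from 17.95 to 18.1, from 2.01 to 2.11 and at 3.24 in WT replicates 1, 2 and 3. Their RPKM differed from each other mainly as their transcript lengths do. The sources used here do not say how reads with several positions were treated, and 50-base windows of these transcripts occurred in up to 19 other genes. Hist1h2ab stands for the set: it was at 33.9, 21.96 and 7.64 RPKM in Adamts17-/- and at 12.5, 5.06 and 7.50 RPKM in WT, with a log2 difference of 1.10 ± 1.47, and 0.97 without replicate 2. Adamts17-/- replicate 3 lay below WT replicate 1, so the groups overlapped. Hist1h2ai was at 38.2, 26.2 and 8.61 RPKM in Adamts17-/- and at 14.1, 5.85 and 8.46 RPKM in WT. Hist1h2ah was at 33.6, 21.5 and 7.39 RPKM in Adamts17-/- and at 12.03, 4.90 and 7.26 RPKM in WT. The other 4 of the set had log2 differences from 1.08 to 1.13.

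Further H2A genes are compared with the mean of the 5 matching rows, here called the shared amount. Which reads were counted for more than 1 gene is not known. Over the mean of the 5 matching rows, Hist1h2ag had 1.33, 17.8 and 0.333 additional read equivalents in Adamts17-/- and 1.44, 0 and 1 in WT. Its level was 39.2, 41.9 and 9.28 RPKM in Adamts17-/- and 14.5, 5.55 and 10.5 RPKM in WT (log2 difference 1.31 ± 1.43, and 0.95 without replicate 2). The excess of Hist1h2ag was largest in replicate 2. With 78.9% of its windows shared with other genes, that excess cannot be assigned to this gene alone. Hist1h2ac had 0.667, 4.84 and 0 additional read equivalents in Adamts17-/- and 0.775, 0 and 0 in WT, and its level was 36.6, 27.9 and 7.92 RPKM in Adamts17-/- and 13.5, 5.38 and 7.78 RPKM in WT. Hist1h2af exceeded the shared amount by 27.8, 7.84 and 31.9 read equivalents in Adamts17-/- and by 33.0, 60.8 and 16.9 in WT. The excess of the Hist1h2af row was lowest in Adamts17-/- replicate 2, the library with the largest total. With 79.7% of the windows of Hist1h2af shared with other genes, it cannot be assigned to this gene alone either. Hist1h2ak lay below the shared amount in all 6 libraries, with differences of -9.40, -14.6 and -1.32 read equivalents in Adamts17-/- and of -9.05, -1.12 and -1.14 in WT.

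Hist1h2ap is listed at 2 positions of chromosome 13, 21810467 to 21810918 and 21833024 to 21833475, with values that matched in all 6 libraries. At the first it was at 108, 86.9 and 29.3 RPKM in Adamts17-/- and at 50.9, 21.4 and 39.4 RPKM in WT, with a log2 difference of 0.88 ± 1.26, and 0.67 without replicate 2. Adamts17-/- replicate 3 lay within the WT range. At the second position the log2 difference of Hist1h2ap was 0.88 as well. Hist1h2ao shares 93.5% of its windows with Hist1h2ap and was listed at the same 2 places, at 0, 3.55 and 0 RPKM in Adamts17-/- and at 1.28, 0 and 0 RPKM in WT.

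**Figure D4:**
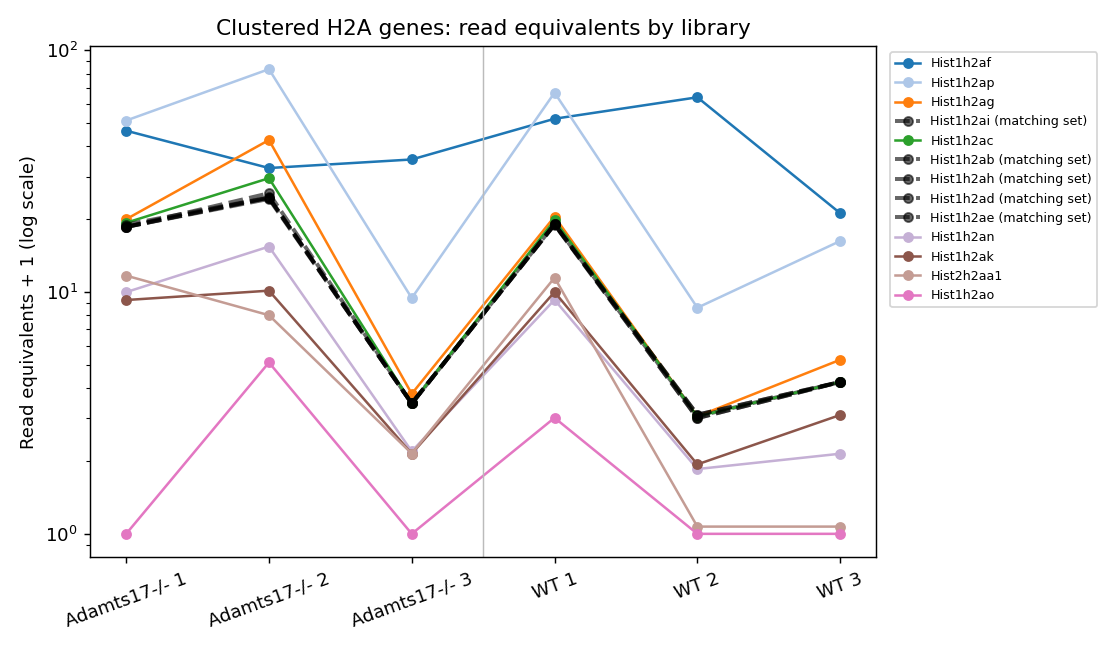
Read equivalents + 1 of the 13 clustered H2A genes (y axis, log scale) in the 6 libraries, where lines only join the values of 1 gene. The 5 genes of the matching set, dashed in black, fall on each other, Hist1h2af and Hist1h2ap run above them, and WT replicate 2 is the highest library for Hist1h2af and among the lowest for the set.

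Of the H2B genes, Hist1h2bc was the highest. It was at 19.6, 64.2 and 2.03 RPKM in Adamts17-/- and at 17.8, 0 and 201 RPKM in WT, so the lowest and the highest library were both WT. Its log2 difference was 0.033 ± 1.68, and -0.98 without replicate 2. The table gives it a width of 8282 bases for a transcript of 774, which means that it is counted on a spliced transcript. Hist1h2bq and Hist1h2br fill 4 rows with matching values at 2 positions, and the 2 symbols have equal values and the same start at each. Hist1h2bq was at 7.87, 0.0618 and 0.407 RPKM in Adamts17-/- and at 2.24, 10.6 and 0.0413 RPKM in WT, and was lowest in replicate 3 of WT.

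The remaining clustered rows were Hist1h2an, Hist1h2ak, Hist1h4i and 2 rows of Hist2h2aa1. Hist1h4i, the single H4 member, was at 0, 12.3 and 0 RPKM in Adamts17-/- and at 1.74, 0 and 0 RPKM in WT, or 10.4 and 2 read equivalents in the libraries that were not at 0. Hist2h2aa1 was at 18.7, 6.01 and 3.24 RPKM in Adamts17-/- and at 6.58, 0.163 and 0.150 RPKM in WT (log2 difference 1.95 ± 1.51). It rests on at most 10.7 read equivalents in Adamts17-/- and 10.5 in WT, and both its positions lie wholly within antisense genes. The deposited table held no clustered H3 gene and no H4 or H2B gene beyond those named here. It lists 19 Hist symbols, against 70 in GENCODE M21.

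As a set, 20 of 24 clustered rows had a higher mean on the log2 scale in Adamts17-/- than in WT and 4 a lower one, with a median log2 difference of 0.94, and 0.84 without replicate 2. The rows in this count are not separate measurements. The 4 lower ones were the matching rows of Hist1h2bq and Hist1h2br, and the higher ones include the 5 matching H2A rows. Taking 1 row for each of the 14 sets of matching read equivalents gave 0.93. Among replacement rows 9 were higher and 2 lower, with a median of 0.95, and without replicate 2 there were 7 higher and 4 lower, with a median of 0.38. Over all 14882 rows 7291 were higher and 7590 lower, and without replicate 2 there were 6657 higher and 8212 lower. The median of all rows was -0.02, and -0.14 without replicate 2. Scaling to total read equivalents moved the median of all rows to -0.18, that of clustered rows to 0.69 and that of replacement rows to 0.66. These counts describe means and are not calls. The median log2 level of a class in 1 library varied within a genotype with a pooled SD of 0.87 in the clustered and 1.84 in the replacement class, so neither shift stood far outside the spread between libraries.

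In the test across genes, 21 of 24 clustered and 8 of 11 replacement rows passed the filter of at least 1 RPKM in at least 3 libraries. Limma called 0 of 9128 genes (0% higher and 0% lower in Adamts17-/-) at an adjusted p under 0.05, where 229 had an unadjusted p under 0.05, among them 1 histone row, H2afz. All 29 tested histone rows had an adjusted p of 0.999. The median standard error of a log2 difference was 1.45 in tested clustered and 1.24 in tested replacement rows.

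**Figure D5:**
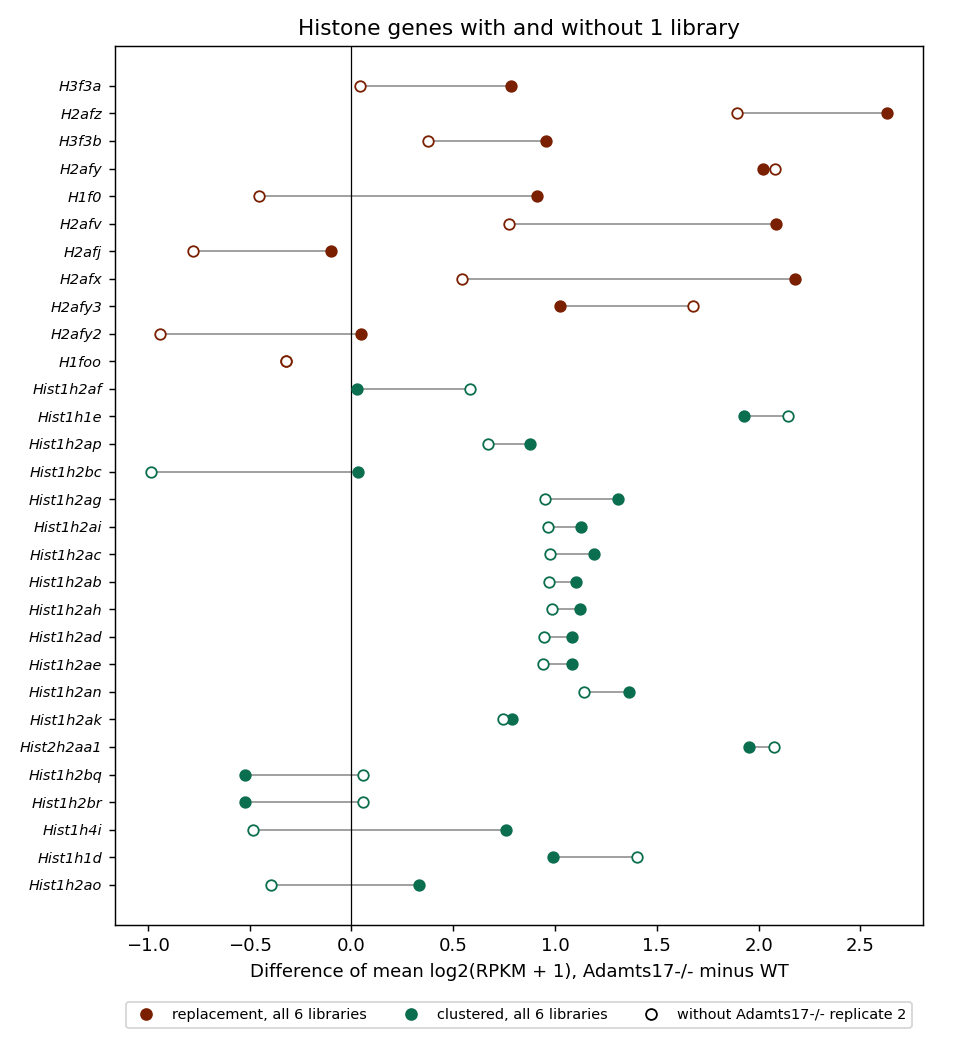
Difference of mean log2(RPKM + 1), Adamts17-/- minus WT (x axis), for each histone gene, with all 6 libraries (filled) and without Adamts17-/- replicate 2 (open). The points of H1f0, H2afy2, Hist1h2bc, Hist1h4i and Hist1h2ao move to below 0 without that library, Hist1h2bq and Hist1h2br move to above it, and those of the H2A matching set stay near 1.

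Of 11 genes that process and transcribe clustered histone messages, 7 had a higher and 4 a lower mean in Adamts17-/-, 4 were tested and 0 were called in either direction. The median log2 difference was 0.43, and -0.39 without replicate 2. Slbp, the hairpin-binding protein, was at 9.77, 131 and 0.486 RPKM in Adamts17-/- and at 10.5, 24.2 and 0.309 RPKM in WT. Replicate 2 was the highest and replicate 3 of each genotype near 0. Lsm11, a subunit of the particle that cuts the message after the hairpin, was at 16.2, 0.138 and 93.8 RPKM in Adamts17-/- and at 8.57, 23.4 and 2.25 RPKM in WT. Cpsf3, the endonuclease that makes the cut, was at 0.019, 22.5 and 0.0306 RPKM in Adamts17-/- and at 15.7, 0.622 and 0 RPKM in WT.

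Histone chaperones and assembly factors numbered 23, of which 20 were tested and 0 called. Means were higher in Adamts17-/- for 19 and lower for 4, with a median log2 difference of 0.99, and 0.40 without replicate 2. Npm1, an abundant nucleolar chaperone, was at 324, 860 and 106 RPKM in Adamts17-/- and at 110, 57.5 and 354 RPKM in WT. Set was at 49.9, 244 and 265 RPKM in Adamts17-/- and at 60.6, 151 and 24.4 RPKM in WT, and Ipo4, an importin of H3 and H4, was at 77.7, 93.1 and 215 RPKM in Adamts17-/- and at 25.7, 73.3 and 103 RPKM in WT. In all 3 genes the groups overlapped. Anp32e, the chaperone that removes H2A.Z from nucleosomes, was the 1 gene of the list whose groups did not, and is named after its values were seen. It was at 50.7, 180 and 91.7 RPKM in Adamts17-/- and at 14.3, 15.1 and 14.9 RPKM in WT (log2 difference 2.60 ± 1.28, limma adjusted p = 0.999). Of all 14882 rows, 2.35% had all Adamts17-/- libraries above all WT libraries and 4.63% all below. A count of 1 in 23 is therefore not read as a result about the list.

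Of the 22 DNA replication and S phase genes found in the table, 18 were tested and 0 called. Their means were higher in Adamts17-/- for 21 and lower for 1, 19 of 22 were highest in replicate 2, and the median log2 difference of 1.27 was 0.26 without that library. Mcm7, a subunit of the replicative helicase, was the 1 gene whose groups did not overlap and is named for that. It was at 24.4, 68.1 and 19.0 RPKM in Adamts17-/- and at 6.57, 4.25 and 9.81 RPKM in WT. Among all 14882 rows, 2.35% lay above WT without overlap and 4.63% below, so 1 in 22 is not read as a result about the list. Pcna, the sliding clamp, was at 73.4, 1042 and 220 RPKM in Adamts17-/- and at 55.8, 10.1 and 84.3 RPKM in WT. Tyms, which makes thymidylate, was lowest rather than highest in replicate 2, with 1603, 160 and 1654 RPKM in Adamts17-/- and 623, 2477 and 164 RPKM in WT. Its log2 difference was 0.25, and 1.36 without that library. Ccna2, the S phase cyclin A, was at 49.6, 317 and 18.4 RPKM in Adamts17-/- and at 11.3, 2.26 and 103 RPKM in WT. Replicate 2 was thus the highest library for most replication genes and most replacement histones, and for 4 of 24 clustered rows.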

How the data were processed

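For 14882 genes in 6 libraries, the authors deposited normalized values whose unit no source used here names. They were taken to be RPKM because, multiplied by transcript length, many deposited values of a library lie on whole multiples of a single step. The others lie between these multiples. Scaling by TMM (trimmed means of M-values) is stated only in the name of the deposited table. Aligner, counting program, genome build and the treatment of multi-mapping reads were not given in the sources used here. All 30 symbols were found in RefSeq GRCm38.p6 with a start within 1000 bases, and 30 of 35 rows overlap the GENCODE M21 gene of their symbol, the other 5 being 1 of the 2 positions listed for Hist1h2ao, Hist1h2ap, Hist1h2bq, Hist1h2br and Hist2h2aa1. Coordinates are the table's own, or those of GENCODE M21 (GRCm38) and RefSeq for sequences.

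Read equivalents are value times transcript length divided by the step. Taking those from 1 to 20, 24.2% to 34.8% in a library were whole within 0.01, so no count model was fitted. Groups came from sample titles and columns from sample descriptions. No value above 0 was shared by 2 libraries. Values were compared as log2(RPKM + 1), which understates folds of low genes, with limma 3.58.1 in R 4.3.3 (intensity trend, two-sided, Benjamini-Hochberg over 9128 genes). Separate animals are not stated, so p-values measure only the spread between these libraries, which may be technical. The test was checked on simulated data whose planted differences were larger than those of any histone row. That check therefore does not show what the test would miss at the sizes seen here. Alternatives were other pseudocounts (0.1 and 4), filters (none, and at least 5), upper-quartile scaling, scaling to total read equivalents (added after seeing the data), the replicate number as a block, and leaving out libraries in turn. Python 3.11.15 was used for tables, sequence searches and plots.

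Members and gene lists were chosen with earlier results of these data known. Named genes were all replacement rows, the 10 clustered rows with the highest mean over all libraries and the 3 highest members of each gene list, though marker lists are given mainly as sums. Other clustered rows, Anp32e and Mcm7 were chosen after their values were seen.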

Additional observations from a re-analysis of the deposited data

How the results depend on the processing

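In 12 of 13 alternatives limma called 0 genes at an adjusted p under 0.05, and leaving out 1 library gave 0 to 5 (5 without Adamts17-/- replicate 3, of which 0 were histone rows). Genes at an unadjusted p under 0.05 numbered 135 to 376. With 1 library left out, the clustered median log2 difference ranged from 0.67 to 1.44 and the replacement median from 0.38 to 1.41. Both were highest when Adamts17-/- replicate 3 was left out, the clustered median was lowest without replicate 1 of that genotype and the replacement median without its replicate 2. The replicate block left these medians at 0.94 and 0.95, called 0 genes and gave 171 at an unadjusted p under 0.05. Deviations of libraries with the same number correlated at -0.0075, -0.35 and -0.10, so the numbers were not taken as pairs. Upper-quartile scaling gave medians of 0.77 and 0.73, moved the median of all rows to -0.11 and turned the differences of Hist1h2af, Hist1h2bc and H2afy2 to -0.19, -0.19 and -0.12. Scaling to total read equivalents, added after seeing the data, called 0 genes, gave medians of 0.69 and 0.66 and turned those 3 genes to -0.25, -0.25 and -0.22. Of 273 values for 21 named rows, 22 changed sign, in 6 rows. Clustered rows under 10 read equivalents are limited by depth.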

Other observations

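All 13 clustered H2A symbols, and H2afj, H2afx and H2afy2 among the replacement genes, overlap a miRNA annotation on the opposite strand in GENCODE M21. The sources used here do not say whether counting used strand, so reads of the 2 strands cannot be told apart in these rows. H3f3a, H2afy and H1f0 overlap a long non-coding or antisense gene on the opposite strand, by 6916, 11228 and 401 bases. H2afy3 lies wholly in Pvt1 over 1911 bases, and both positions of Hist2h2aa1 lie wholly in antisense genes over 556 bases.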
